A study of Mus musculus with 17 samples.

Results

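The first day of 2i was followed in WT E14 mouse embryonic stem cells by setting the 2 libraries of WT cells at day 1 against the 2 libraries of WT cells at day 0, 4 of the 17 RNA-seq libraries of the series. The members are fixed by their sample titles (genotype, day and replicate number), and no measured value entered the choice. The WT day 1 cells had received 1 µM PD0325901, a MEK inhibitor, and 3 µM CHIR99021, a GSK3 inhibitor, for 1 day. The WT day 0 cells had received neither. Both groups, like all others of the series, grew without feeder cells on gelatine in 10% serum with 1000 U/mL LIF, so that 2i was here an addition to serum and LIF and not a change to serum-free medium. The series also holds WT cells after 2 and 7 days of 2i and cells of the RNAPII-mut genotype, which carry a slow-elongating RNA polymerase II (slow/slow), at the same days. The 3 RNAPII-mut libraries of day 1 and the 2 of day 0 are set beside the WT values, and all RNAPII-mut libraries also enter the estimate of spread behind the WT p-values. Whether each genotype is 1 clone, and whether replicates came from separate cultures, is not given in the sources used here. The p-values therefore measure only the spread between these libraries, which may not be the spread between cultures or clones.

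As background, FGF4 made by embryonic stem cells acts through MEK and ERK, and this signal moves the cells towards a formative state ready for differentiation. Its negative feedback genes (the Sprouty, Spred and Dusp families) and ETS factors such as Etv4 are transcribed in response to ERK activity. GSK3 marks beta-catenin for destruction, and its inhibition lets beta-catenin act with TCF/LEF factors, lifting the repression that Tcf7l1 exerts on Nanog, Esrrb, Tfcp2l1 and other naive factors. Cells under both inhibitors are held in naive, or ground state, pluripotency and lose much of their DNA methylation over days, with low levels of the de novo methyltransferases and their cofactor Dnmt3l.

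The 4 WT libraries held 53856361 to 56138844 counts, within the series' range of 47350441 to 56138844. Levels are given as CPM, gene counts divided by the library's total and put on a common scale with TMM factors. Calls are genes with an adjusted p (Benjamini-Hochberg, over 15365 genes) under 0.05 in edgeR's quasi-likelihood test, fitted to all 17 libraries. Pou5f1 and Sox2, the core factors of pluripotent cells, stood high in the 4 WT libraries. Pou5f1 had 948.7 and 2287 CPM at day 1, against 1343 and 1877 CPM at day 0. Sox2 had 430.0 and 470.9 CPM at day 1, against 444.2 and 453.4 CPM at day 0. The defining genes of the labelled cell type were thus present at both days.

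The libraries with replicate number 1 stood apart from those with number 2 at both days. Of 30 smooth muscle and stromal markers, 24 were higher in number 1 than in number 2 at both days, and 1 was lower. Their summed level was 4424 (number 1) and 1753 CPM (number 2) at day 1, against 3837 and 1172 CPM at day 0, while the 5 RNAPII-mut libraries lay between 1311 and 1582 CPM. Acta2, smooth muscle actin, had 326.6 and 0.12 CPM at day 1, against 151.0 and 0.10 CPM at day 0. Col1a1, a fibrillar collagen, had 122.6 and 2.31 CPM at day 1, against 54.2 and 1.91 CPM at day 0. The 25 primitive streak and mesoderm markers summed to 214.1 and 91.2 CPM at day 1, against 255.0 and 94.6 CPM at day 0. Of the 25, 14 were higher in number 1 at both days and 7 in number 2. Brachyury, T, which held the largest part of that sum in number 1, had 91.5 and 6.73 CPM at day 1, against 113.4 and 0.20 CPM at day 0. Number 2 in turn carried more of the 24 primitive endoderm markers, 18 of which were higher in number 2 at both days. Gata6, a master regulator of that lineage, had 1.65 and 8.52 CPM at day 1, against 1.24 and 28.2 CPM at day 0. None of the members of these 3 lists was at 0 in all 4 libraries. Across genes, log CPM correlated at r = 0.983 between both days of number 1 and at r = 0.965 between both days of number 2, against 0.938 between the day 1 libraries and 0.944 between the day 0 libraries. The replicate numbers therefore differed from each other more than the days did, and each result below is given for each number.

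**Figure D1:**
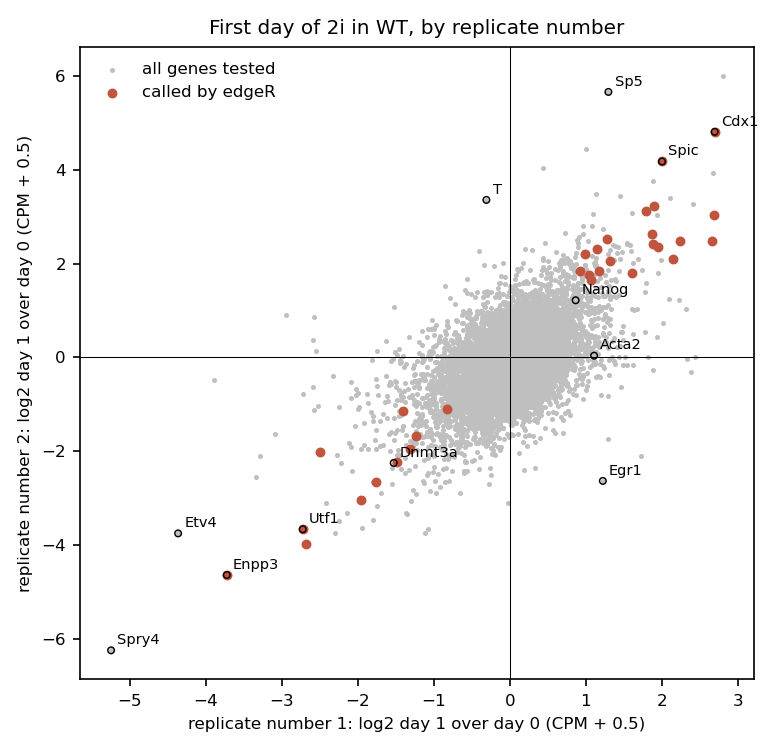
Log2 ratio of day 1 over day 0 in WT cells (CPM + 0.5) for each of the 15365 genes tested, replicate number 1 on the horizontal and number 2 on the vertical axis, with the 31 called genes in red and 12 genes of the text marked. The called genes lie along the diagonal in the upper right and lower left, whereas T lies near 0 in number 1 only, Acta2 near 0 in number 2 only, and Egr1 has opposite signs in the 2 numbers.

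In the fit without a term for replicate number, 1 day of 2i gave a small set of genes that passed the test. They were led by the fall of Enpp3, Myrf and Utf1 and by the rise of Cdx1 and Spic. Of 15365 genes, 20 rose (0.13%) and 11 fell (0.0716%) in WT cells. The fitted log2 fold changes ran between 1.35 and 3.84 among the genes that rose, and 30 of the 31 genes moved by at least 2-fold. At an unadjusted p under 0.05 there were 1293 genes. In all 31 genes the day 1 libraries lay on one side of both day 0 libraries, and 28 were past 2-fold within each replicate number. Non-overlap by itself was common in this design, since 14.8% of the genes tested had both day 1 libraries above both day 0 libraries, and 14.7% had both below. The number of calls depended on the fit: with only the 4 libraries compared, or with only the WT libraries, 0 genes passed (482 and 610 at an unadjusted p under 0.05), whereas DESeq2 called 321, the 31 among them. It also moved with single libraries, with 80 calls without day 0 replicate 1, 2 without day 0 replicate 2, 83 without day 1 replicate 1 and 0 (1012 at an unadjusted p under 0.05) without day 1 replicate 2. The split of 20 up and 11 down became 21 and 18 with upper quartile normalisation. With a term for the WT replicate number (a block) added to the fit, 237 genes passed, the 31 among them. The labels do not say that the number marks a shared culture or day, so the block was an alternative only.

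**Figure D2:**
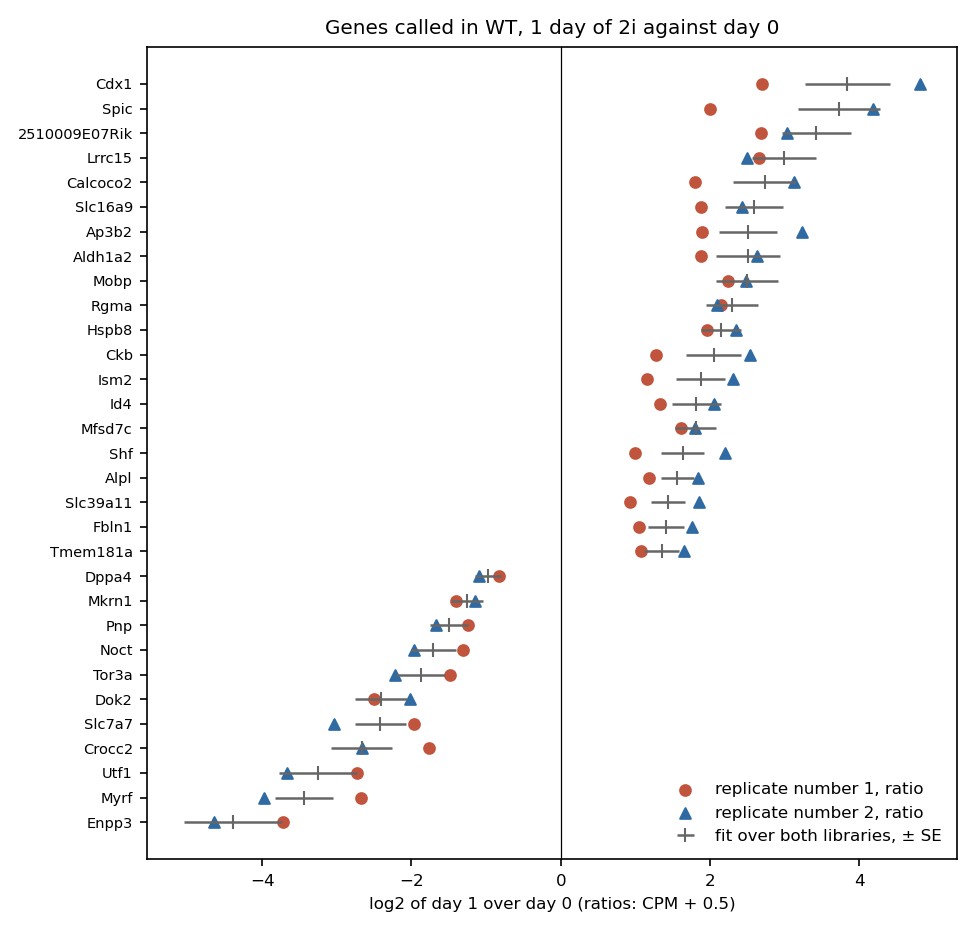
Log2 of day 1 over day 0 for the 31 genes called in WT cells, with red circles for replicate number 1, blue triangles for number 2 (both as ratios of CPM + 0.5) and the grey bar for the fitted log2 fold change ± SE. Both numbers lie on the same side of 0 for each gene, and 18 of the 20 genes that rose lie farther from 0 in number 2.

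Among the genes that fell, the steepest change was that of Enpp3 (chromosome 10, 24772406 to 24842823, minus strand, mm10), which encodes an ectonucleotide pyrophosphatase of the cell surface. Enpp3 had 2.83 and 1.06 CPM at day 1, against 43.5 and 38.4 CPM at day 0. The groups were far apart, and its log2 fold change was -4.39 ± 0.65 (SE; edgeR adjusted p = 0.0210). Myrf, on chromosome 19 (10208272 to 10240748), is a membrane-bound transcription factor known for driving myelin genes. It had 9.80 and 6.99 CPM at day 1, against 65.5 and 116.8 CPM at day 0. Its log2 fold change of -3.44 ± 0.38 had the smallest adjusted p of the comparison (0.009997). Utf1, a chromatin-bound factor of pluripotent cells counted here among the core and the formative genes, had 45.3 and 39.8 CPM at day 1, against 301.5 and 510.6 CPM at day 0. Utf1 fell by 3.26 ± 0.52 on the log2 scale (edgeR adjusted p = 0.0274).

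Slc7a7, the light chain of a cationic amino acid exchanger, fell as well and had 40.1 and 18.8 CPM at day 1, against 157.4 and 157.7 CPM at day 0 (log2 fold change -2.42, edgeR adjusted p = 0.0210). Dok2 encodes an adaptor that dampens Ras and ERK signalling downstream of tyrosine kinases. It had 4.13 and 4.18 CPM at day 1, against 25.6 and 18.5 CPM at day 0 (log2 fold change -2.41, edgeR adjusted p = 0.0210). The day 1 libraries were nearly equal for Dok2, and replicate number 1 showed the larger change. Pnp, purine nucleoside phosphorylase, had 53.1 and 68.7 CPM at day 1, against 125.9 and 219.0 CPM at day 0 (log2 fold change -1.501, edgeR adjusted p = 0.0394). Pnp has a near-identical copy, Pnp2, and how reads were split between them is not given in the sources used here.

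Crocc2, named for the ciliary rootlet, Tor3a, a torsin ATPase, Noct, a phosphatase of NADP(H) with circadian expression, and Mkrn1, a ubiquitin ligase, completed the fallers with Dppa4. Their log2 fold changes lay between -2.67 for Crocc2 and -1.26 for Mkrn1. Dppa4, which works with Dppa2 at chromatin of developmental promoters, had the smallest change of the 31. Dppa4 had 73.8 and 75.3 CPM at day 1, against 131.1 and 161.8 CPM at day 0. It fell by 0.97 ± 0.18 on the log2 scale (edgeR adjusted p = 0.0480), and it was the one called gene whose change was under 2-fold.

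Among the genes that rose, 2 encode transcription factors at the head of the list by size. Cdx1, a caudal homeobox factor and a known target of Wnt signalling, had 48.6 and 92.7 CPM at day 1, against 7.07 and 2.81 CPM at day 0. Its log2 fold change was 3.84 ± 0.57 (edgeR adjusted p = 0.0210). Spic (chromosome 10, 88674772 to 88685015), an ETS family factor best known from red pulp macrophages, had 8.75 and 33.8 CPM at day 1, against 1.81 and 1.39 CPM at day 0. Its log2 fold change was 3.73 ± 0.55 (edgeR adjusted p = 0.0210). Both genes had low levels at day 0, and both had the larger ratio in replicate number 2, with log2 ratios of 2.70 (number 1) and 4.82 (number 2) for Cdx1 and of 2.00 and 4.18 for Spic. Id4, a dominant negative helix-loop-helix protein, had 11.3 and 14.5 CPM at day 1, against 4.20 and 3.10 CPM at day 0 (log2 fold change 1.82, edgeR adjusted p = 0.0445).

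Calcoco2 (chromosome 11, 96099326 to 96111964), also called NDP52, is counted among the autophagy receptors. It had 75.4 and 269.8 CPM at day 1, against 21.3 and 30.6 CPM at day 0 (log2 fold change 2.73 ± 0.42, edgeR adjusted p = 0.0210). Hspb8 (chromosome 5, 116408491 to 116422864, minus strand) is a small heat shock protein of chaperone-assisted autophagy. It had 142.1 and 128.4 CPM at day 1, against 36.3 and 24.8 CPM at day 0. Its log2 fold change of 2.15 ± 0.27 (edgeR adjusted p = 0.0168) had the smallest SE among the 12 largest rises, and the libraries of each day were close to each other.

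Ckb, brain-type creatine kinase, was the most abundant gene that rose, with 457.0 and 1133 CPM at day 1, against 188.7 and 195.5 CPM at day 0 (log2 fold change 2.05, edgeR adjusted p = 0.0445). Alpl, the tissue-nonspecific alkaline phosphatase whose activity is stained to mark embryonic stem cells, had 337.9 and 570.0 CPM at day 1, against 148.9 and 158.6 CPM at day 0 (log2 fold change 1.56, edgeR adjusted p = 0.0210). Aldh1a2, which makes retinoic acid from retinaldehyde, had 10.5 and 17.6 CPM at day 1, against 2.51 and 2.42 CPM at day 0 (log2 fold change 2.51, edgeR adjusted p = 0.0396). All 3 enzymes had higher day 1 levels in number 2 than in number 1, while their day 0 levels were close to each other. Slc16a9, a transporter of the monocarboxylate family, had 5.79 and 8.40 CPM at day 1, against 1.21 and 1.15 CPM at day 0 (log2 fold change 2.59, edgeR adjusted p = 0.0210).

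Ap3b2, a neuronal subunit of the AP-3 vesicle adaptor, had 35.1 and 36.3 CPM at day 1, against 9.08 and 3.43 CPM at day 0. Mobp, a protein of myelin, had 22.8 and 20.7 CPM at day 1, against 4.42 and 3.28 CPM at day 0. Rgma, a membrane-anchored BMP co-receptor and axon guidance molecule, had 14.01 and 15.3 CPM at day 1, against 2.78 and 3.18 CPM at day 0. In these 3 genes the day 1 libraries were close to each other. Lrrc15, a leucine-rich repeat membrane protein, had 11.1 and 8.99 CPM at day 1, against 1.34 and 1.18 CPM at day 0. Ism2, a secreted isthmin, had 9.55 and 14.4 CPM at day 1, against 4.02 and 2.50 CPM at day 0. Their log2 fold changes were 2.51 (Ap3b2), 2.50 (Mobp), 2.30 (Rgma), 2.99 (Lrrc15) and 1.88 (Ism2), and their edgeR adjusted p-values ran between 0.0210 and 0.0437. Fbln1, Mfsd7c, Shf, Slc39a11, Tmem181a and 2510009E07Rik made up the 20. The last, a protein-coding gene kept from the naming rule by its symbol, had 9.16 and 9.69 CPM at day 1, against 1.005 and 0.74 CPM at day 0 (log2 fold change 3.43, edgeR adjusted p = 0.0210).

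Replicate number 2 showed the wider response. Past 2-fold within a number and without a test, 231 genes were higher and 291 lower at day 1 in number 1, and 600 were higher and 880 lower in number 2. Past 2-fold in both numbers were 120 genes higher (0.781%) and 153 lower (0.996%). The 120 are 51.9% of the genes higher in number 1 and 20.0% of those in number 2, and the 153 are 52.6% and 17.4% of the genes lower. The log2 ratios had an SD over genes of 0.421 in number 1 and 0.643 in number 2, and correlated across genes at r = 0.498, where genes are not independent replicates. Among the called genes the median log2 ratio was 1.84 in number 1 and 2.39 in number 2 for the 20 that rose, and -1.76 and -2.22 for the 11 that fell. With both libraries of number 1 left out, 29 genes passed, 14 of them among the 31; with both of number 2 left out, 2 genes passed, 1 of them among the 31. Those fits leave 1 library a group, whose spread is then taken from the other groups.

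The targets of ERK that feed back on the pathway stood lower in WT cells at day 1, with large differences for a few members, but none passed edgeR's test. Of 14 Sprouty, Spred and Dusp genes tested, 0 were called, 13 had a negative log2 fold change, and 11 had both day 1 libraries below both day 0 libraries, against 14.7% of all genes tested. Calls were rare over all genes tested (0.13% higher and 0.0716% lower). Few or no calls in this list and those below are therefore no result about their members. The median log2 fold change of the list was -1.06, against 0.01 over all genes, with -0.89 in number 1 and -0.98 in number 2. Spry4, an inhibitor of receptor tyrosine kinase signalling, had 2.29 and 3.49 CPM at day 1, against 105.3 and 303.1 CPM at day 0. Its log2 fold change was -6.14 ± 1.14, and its edgeR adjusted p of 0.0506 lay just beyond the threshold. The within-number log2 ratios of Spry4 were -5.25 and -6.25, the lowest of all genes past 2-fold in both numbers. Dusp6, a phosphatase that inactivates ERK itself, had 19.04 and 10.2 CPM at day 1, against 104.3 and 90.7 CPM at day 0 (log2 fold change -2.74, edgeR adjusted p = 0.258). Dusp4, a nuclear phosphatase of the same family, had 18.9 and 2.96 CPM at day 1, against 95.0 and 46.2 CPM at day 0 (log2 fold change -2.69, edgeR adjusted p = 0.322). Their groups did not overlap either. DESeq2 called Spry4 (adjusted p = 9.38e-06), Dusp6 (0.0184) and Dusp4 (0.0352). Over the 14 settings run, Spry4 was called in 6, Dusp6 in 1 and Dusp4 in 2. The genes called in the main fit did not pass in every setting either, with Myrf called in 10, Cdx1 in 9 and Utf1 in 7. Spry2 was closer, with 60.6 and 93.8 CPM at day 1, against 112.3 and 137.9 CPM at day 0. In bulk RNA, fewer cells expressing a gene and less RNA per cell cannot be told apart.

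The ETS and immediate early genes were less uniform. Of 24 tested, 0 were called, 15 had a negative log2 fold change and 9 had both day 1 libraries below both day 0 libraries, against 14.7% of all genes tested. The median log2 fold change was -0.19. Etv4, an ETS factor of the FGF response, had 4.82 and 17.8 CPM at day 1, against 108.9 and 246.4 CPM at day 0 (log2 fold change -3.97 ± 0.95, edgeR adjusted p = 0.128). DESeq2 called Etv4 (adjusted p = 0.00424), which was called in 2 of 14 settings. Its close relative Etv5 overlapped between the days, with 350.8 and 457.6 CPM at day 1, against 523.8 and 345.1 CPM at day 0. Egr1 and Fos, immediate early factors, differed between the replicate numbers in direction. Egr1 had 181.5 and 4.51 CPM at day 1, against 77.4 and 30.6 CPM at day 0. Fos had 109.6 and 2.67 CPM at day 1, against 48.1 and 3.76 CPM at day 0. For both, number 1 was higher and number 2 lower at day 1. Myc, a driver of growth, had 18.0 and 55.9 CPM at day 1, against 75.5 and 155.5 CPM at day 0 (log2 fold change -1.64, edgeR adjusted p = 0.438).

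**Figure D3:**
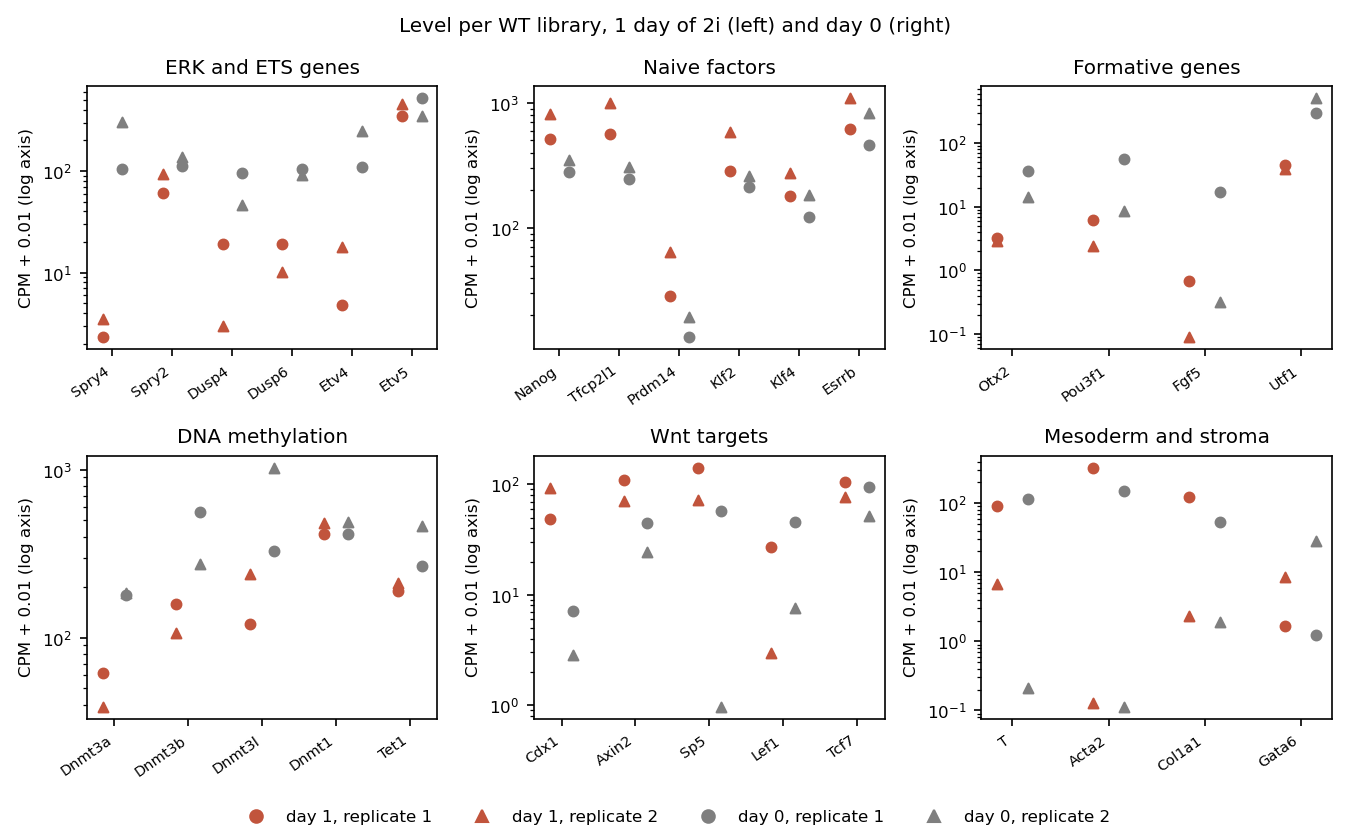
CPM per WT library (log axis, 0.01 added) for 30 genes in 6 groups, day 1 in red to the left and day 0 in grey to the right, with circles for replicate number 1 and triangles for number 2. Spry4, Etv4, Otx2, Utf1 and Dnmt3a stand lower and Cdx1, Nanog, Tfcp2l1 and Prdm14 stand higher in both day 1 libraries. T, Acta2 and Col1a1 stand higher in number 1 than in number 2 at both days, and T is also higher at day 1 than at day 0 in number 2.

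Genes of the formative and primed state had the lowest median of the 32 lists. Of 24 tested, edgeR called Utf1, 21 had a negative log2 fold change, and 10 had both day 1 libraries below both day 0 libraries, against 14.7% of all genes tested. The same 10 were past 2-fold lower in both replicate numbers, and 0 were past 2-fold higher. The median log2 fold change was -1.37, with -1.35 in number 1 and -1.30 in number 2. Otx2, a homeobox factor that directs exit from the naive state, had 3.25 and 2.90 CPM at day 1, against 36.1 and 14.1 CPM at day 0 (log2 fold change -3.03 ± 0.57, edgeR adjusted p = 0.0528). Pou3f1, a POU factor of the epiblast, had 6.16 and 2.39 CPM at day 1, against 55.9 and 8.51 CPM at day 0 (log2 fold change -2.91, edgeR adjusted p = 0.109). DESeq2 called Otx2 (adjusted p = 1.2e-05) and Pou3f1 (0.000668), and over 14 settings they were called in 5 and 4. The levels of Otx2 and Pou3f1 at day 0 were higher in number 1, the number with more mesoderm transcripts, and the part of other cell types in the difference was not tested. Fgf5, the classical ligand of the postimplantation epiblast, was nearly restricted to number 1, with 0.67 and 0.08 CPM at day 1, against 16.95 and 0.30 CPM at day 0.

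The de novo DNA methylation genes stood lower at day 1 and the maintenance enzyme did not. Dnmt3a had 61.9 and 38.6 CPM at day 1, against 179.2 and 185.6 CPM at day 0 (log2 fold change -1.86 ± 0.34, edgeR adjusted p = 0.0506). Dnmt3b had 159.6 and 106.6 CPM at day 1, against 558.4 and 274.8 CPM at day 0 (log2 fold change -1.65, edgeR adjusted p = 0.206). Dnmt3l, the cofactor without catalytic activity, had 119.9 and 240.9 CPM at day 1, against 327.7 and 1028 CPM at day 0 (log2 fold change -1.91, edgeR adjusted p = 0.139). All 3 were past 2-fold lower in both numbers and none passed edgeR's test, whereas DESeq2 called Dnmt3a (adjusted p = 8.86e-05), Dnmt3b (0.0277) and Dnmt3l (0.0053). Over 14 settings they were called in 6, 2 and 3. Dnmt1, which copies methylation after replication, had 414.1 and 481.8 CPM at day 1, against 416.2 and 487.5 CPM at day 0, with a log2 fold change of -0.01 ± 0.17. Uhrf1, which brings Dnmt1 to chromatin, overlapped between the days, with log2 ratios of -0.026 (number 1) and 0.471 (number 2). Tet1, a demethylating dioxygenase, had 188.9 and 211.7 CPM at day 1, against 267.5 and 459.5 CPM at day 0 (log2 fold change -0.86, edgeR adjusted p = 0.636).

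Naive pluripotency factors were mostly higher at day 1, and again none that stood higher passed edgeR's test. The 1 member called was Dppa4, which fell (log2 fold change -0.97, edgeR adjusted p = 0.0480). Of 21 tested, 14 had a positive log2 fold change, 5 had both day 1 libraries above both day 0 libraries (14.8% of all genes did) and 3 had both below. Tfcp2l1, a naive factor downstream of LIF and GSK3, had 558.1 and 1001 CPM at day 1, against 244.6 and 308.0 CPM at day 0 (log2 fold change 1.496 ± 0.27, edgeR adjusted p = 0.0506). Nanog had 514.3 and 819.7 CPM at day 1, against 281.8 and 351.3 CPM at day 0 (log2 fold change 1.08 ± 0.24, edgeR adjusted p = 0.101). Prdm14, which represses FGF signalling and de novo methylation genes, had 28.4 and 64.4 CPM at day 1, against 13.3 and 19.5 CPM at day 0 (log2 fold change 1.499, edgeR adjusted p = 0.0923). Day 1 levels of the 3 genes were higher in number 2, and so were their ratios. DESeq2 called Tfcp2l1 (adjusted p = 0.000106), Nanog (0.00533) and Prdm14 (0.00144), which were called in 6, 3 and 4 of 14 settings. Klf2, a Kruppel-like factor held down by ERK activity, had 283.0 and 583.3 CPM at day 1, against 213.8 and 257.7 CPM at day 0 (log2 fold change 0.88, edgeR adjusted p = 0.336). Klf4, Esrrb, Tbx3 and Zfp42 overlapped between the days. Within numbers 1 and 2, the log2 ratios were 0.567 and 0.585 for Klf4 and 0.409 and 0.406 for Esrrb. They were 1.06 and 0.703 for Tbx3, and -0.156 and -0.128 for Zfp42. Klf5 stood lower at day 1, with 52.2 and 65.8 CPM at day 1, against 69.7 and 170.5 CPM at day 0. Of 12 core pluripotency factors, Utf1 was called, and Pou5f1 and Sox2 had log2 fold changes of 0.01 each, with SEs of 0.39 and 0.24.

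Genes of the Wnt pathway and targets of beta-catenin gave 1 call of 30, the rise of Cdx1. Both day 1 libraries lay above both day 0 libraries in 7 of the 30 and below in 2, against 14.8% and 14.7% of all genes tested, and the median log2 fold change was 0.34. Axin2, a feedback inhibitor and the usual readout of beta-catenin activity, had 110.7 and 70.4 CPM at day 1, against 44.3 and 24.2 CPM at day 0 (log2 fold change 1.40, edgeR adjusted p = 0.372). Sp5, a zinc finger factor that answers directly to Wnt, had 141.9 and 73.0 CPM at day 1, against 57.4 and 0.95 CPM at day 0 (log2 fold change 1.88, edgeR adjusted p = 0.751). The log2 ratio of Sp5 was 1.30 in number 1 and 5.67 in number 2, with the difference between the numbers lying in the day 0 libraries. T, also a Wnt target, showed the same split at day 0. Lef1 and Tcf7, which partner beta-catenin on DNA, overlapped between the days. Lef1 had log2 ratios of -0.752 (number 1) and -1.236 (number 2), and Tcf7 of 0.157 and 0.589.

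To show the sequence context of the higher genes, the 250 bases before the RefSeq start (GRCm38.p6) were searched on both strands for the TCF/LEF core CTTTGA. It was found in 13.8% of all 32851 promoters, in 10.9% of those of the genes tested and in 20.0% of 30 promoters of Wnt list genes. The genes that rose had it in 2 of 21 promoters (9.52%), and the genes that fell in 2 of 12 (16.7%). A match is a description and not a site of binding. The promoters of Sp5, a Wnt target whose day 0 levels differed between the replicate numbers, and of Hspb8 are shown 5′ to 3′ with matches in capitals. Hspb8 rose in both replicate numbers (log2 ratios of 1.95 and 2.35), as all called risers did. Both promoters hold a match, unlike most promoters of the genes that rose, and do not stand for that group. Sp5 lies on the plus strand (chr2:70474673-70474922) and has matches 204 and 104 bases before the start. Hspb8 lies on the minus strand (chr5:116422865-116423114) and has 1 match 91 bases before it.
Sp5: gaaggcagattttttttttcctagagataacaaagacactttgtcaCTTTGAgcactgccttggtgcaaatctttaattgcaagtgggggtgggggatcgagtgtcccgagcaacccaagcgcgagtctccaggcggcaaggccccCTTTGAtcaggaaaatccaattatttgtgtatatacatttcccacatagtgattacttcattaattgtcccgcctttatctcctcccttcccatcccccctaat
Hspb8: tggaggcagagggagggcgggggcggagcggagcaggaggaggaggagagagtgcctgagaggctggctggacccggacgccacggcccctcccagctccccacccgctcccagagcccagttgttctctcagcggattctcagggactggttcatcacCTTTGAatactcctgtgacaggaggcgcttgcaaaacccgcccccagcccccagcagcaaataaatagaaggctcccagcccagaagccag

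Growth control gave no edgeR call among 28 G1 and cell cycle genes. Cdkn1a, the CDK inhibitor p21, had 255.2 and 229.2 CPM at day 1, against 116.2 and 52.3 CPM at day 0 (log2 fold change 1.52 ± 0.37, edgeR adjusted p = 0.139). E2f2, a factor of S phase entry, had 8.69 and 10.8 CPM at day 1, against 13.3 and 52.6 CPM at day 0 (log2 fold change -1.76, edgeR adjusted p = 0.146). The groups of both genes did not overlap, with E2f2 differing mainly in number 2. Id1, an HLH factor downstream of BMP, had 48.4 and 24.7 CPM at day 1, against 82.0 and 88.2 CPM at day 0 (log2 fold change -1.22, edgeR adjusted p = 0.135), on the other side from Id4. Of the 16 BMP and Id genes, edgeR called Id4. DESeq2 also called Cdkn1a (adjusted p = 0.0105), E2f2 (0.00679) and Id1 (0.0125), which were called in 3, 4 and 3 of 14 settings. In the LIF, Nodal and FGF lists 0 genes of 19, 16 and 21 were called, and Socs3, Nodal, Lefty1 and Fgf4 overlapped between the days. Within numbers 1 and 2, the log2 ratios were -0.402 and -0.399 for Socs3 and -0.252 and 0.747 for Nodal. They were 0.600 and 0.691 for Lefty1, and 0.481 and 0.603 for Fgf4.

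Genes of organelles and biosynthesis differed by small amounts. Of 30 lysosome genes and TFEB targets, 0 were called, 26 had a positive log2 fold change, and 20 had both day 1 libraries above both day 0 libraries, against 14.8% of all genes. The median log2 fold change was 0.61, and it was the same to the second decimal in both numbers (0.53). Hexa, a lysosomal hexosaminidase subunit, had 85.7 and 157.5 CPM at day 1, against 42.1 and 65.4 CPM at day 0 (log2 fold change 1.18, edgeR adjusted p = 0.505). Ctsb, the protease cathepsin B, had 212.9 and 294.5 CPM at day 1, against 114.3 and 118.4 CPM at day 0 (log2 fold change 1.13, edgeR adjusted p = 0.248). Both members were chosen after their values were seen. All 37 subunits of oxidative phosphorylation had a positive log2 fold change, with a median of 0.36 and 0 calls. The median ratio was 0.12 in number 1 and 0.54 in number 2. The 43 cytosolic ribosomal proteins likewise had 0 calls and a median of 0.40, made of 0.03 in number 1 and 0.63 in number 2. The difference between the numbers was not tested.

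**Figure D4:**
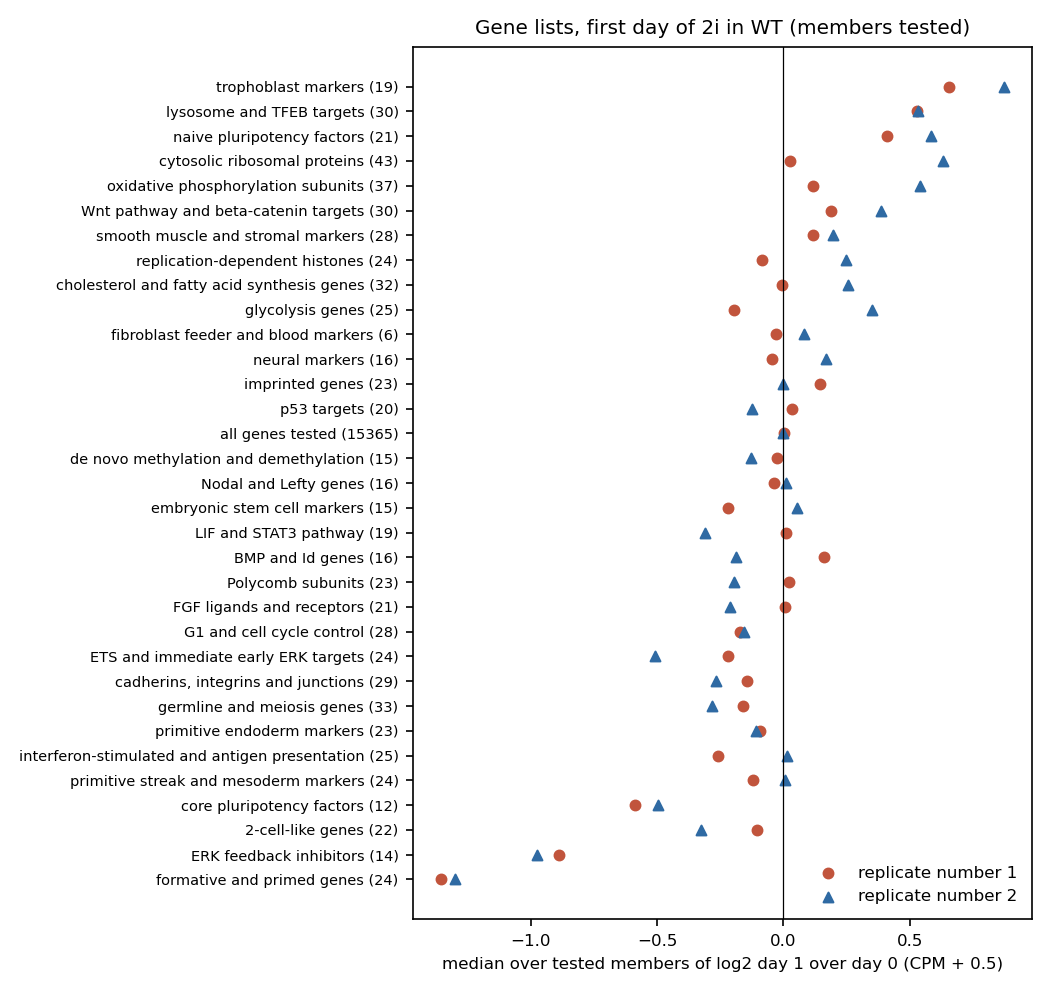
Median over the tested members of each of the 32 gene lists, and over all genes, of the log2 ratio of day 1 over day 0 (CPM + 0.5) in WT cells, with circles for replicate number 1 and triangles for number 2 and the number of members tested in parentheses. The formative genes (-1.35 and -1.30) and the ERK feedback inhibitors (-0.89 and -0.98) lie lowest, the trophoblast list (0.66 and 0.87) lies highest in each number, and the lysosome list has the same median in both (0.53).

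Trophoblast markers had the highest median of the lists. Of 19 tested, 0 were called, 14 had a positive log2 fold change, 8 had both day 1 libraries above both day 0 libraries (14.8% of all genes tested did) and the median log2 fold change was 0.91. Their summed level followed the replicate number, with 1487 and 259.3 CPM at day 1, against 785.0 and 144.5 CPM at day 0. Krt8, a simple epithelial keratin, had 567.9 and 75.2 CPM at day 1, against 266.7 and 37.2 CPM at day 0. Tfap2c, a trophoblast and germ cell factor, had 80.4 and 58.0 CPM at day 1, against 50.9 and 25.8 CPM at day 0. The placental genes Tpbpa and Prl3d1 were at 0 counts in all 4 libraries. The 28 smooth muscle and stromal markers tested had a median log2 fold change of 0.30, and the 24 of the streak and mesoderm -0.38, with 0 calls each. Within numbers 1 and 2, the median log2 ratios were nearer to each other and smaller. They were 0.117 and 0.196 for the stromal list, and -0.12 and 0.008 for the streak and mesoderm list. The part of other cell types in the lists above was not tested. Of the 32 lists, 26 had no called member, where 0.13% of all genes tested were called higher and 0.0716% lower.

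In the RNAPII-mut cells the same day of 2i gave 216 calls, 106 higher (0.69%) and 110 lower (0.716%), from 3 libraries of day 1 and 2 of day 0 that share none with WT. Both contrasts used 1 spread per gene estimated over all 17 libraries, so the calls of the genotypes are not independent of each other. Of the 31 WT calls, 29 were also called there in the same direction, which is 93.5% of the WT calls and 13.4% of the mutant calls, and all 31 had the same sign. The exceptions were Pnp (edgeR adjusted p = 0.0783) and Id4 (edgeR adjusted p = 0.111). Cdx1 had 150.8, 68.8 and 104.4 CPM at day 1 and 4.72 and 5.91 CPM at day 0 in the mutant, and its log2 fold change was 3.84 in WT and 4.34 in the mutant. Myrf had 4.99, 6.64 and 6.603 CPM at day 1 and 93.3 and 56.4 CPM at day 0 in the mutant, and its log2 fold change was -3.44 in WT and -3.62 in the mutant. At day 1 the genotypes overlapped for Cdx1, and Myrf was higher in both WT libraries than in the mutant ones.

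Several genes described above that were not called in WT passed the test in the mutant. Spry4 (log2 fold change -5.71, edgeR adjusted p = 0.0113), Etv4 (-4.62, edgeR adjusted p = 0.0181), Otx2 (-3.47, edgeR adjusted p = 0.00512), Dnmt3a (-1.54, edgeR adjusted p = 0.0272), Nanog (1.46, edgeR adjusted p = 0.00917) and Tfcp2l1 (1.26, edgeR adjusted p = 0.0345) were among them. Of the 216 mutant calls, 215 had the same sign in WT, Elfn1 being the exception. In 204 of the 216 the WT groups did not overlap on that side. Over all genes tested, the WT groups did not overlap in 14.8% on the higher and in 14.7% on the lower side. The 187 genes called in the mutant and not in WT had a median WT log2 fold change of 1.52 among the 87 higher ones and -1.24 among the 100 lower ones. A test of the difference between the responses called 0 genes with edgeR and 0 with DESeq2, so no gene is called particular to WT. Under an unadjusted p of 0.05 lay 118 genes with edgeR (0.768% of those tested) and 185 with DESeq2. The edgeR share is smaller than that threshold lets through where no gene differs. The test was thus conservative here, and 0 calls do not show equal responses.

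At the later days of 2i, all 31 genes lay beyond the day 0 range on the same side in both libraries of day 2 and both of day 7. Of the 20 that rose, 16 had a mean at day 7 above that of day 1, and of the 11 that fell, 7 had a mean at day 7 below that of day 1. The genes were chosen by their distance from the same day 0 libraries, so these values are a description, with no test. Spic had 17.5 and 31.9 CPM at day 2 and 40.0 and 51.6 CPM at day 7, and was thus higher at day 7 in both numbers. Aldh1a2 went the other way after its day 1 peak, with 5.75 and 10.7 CPM at day 2 and 4.07 and 5.11 CPM at day 7. Utf1 and Enpp3 were near their lowest levels already at day 1, with means of 53.4 and 2.33 CPM at day 7.

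**Figure D5:**
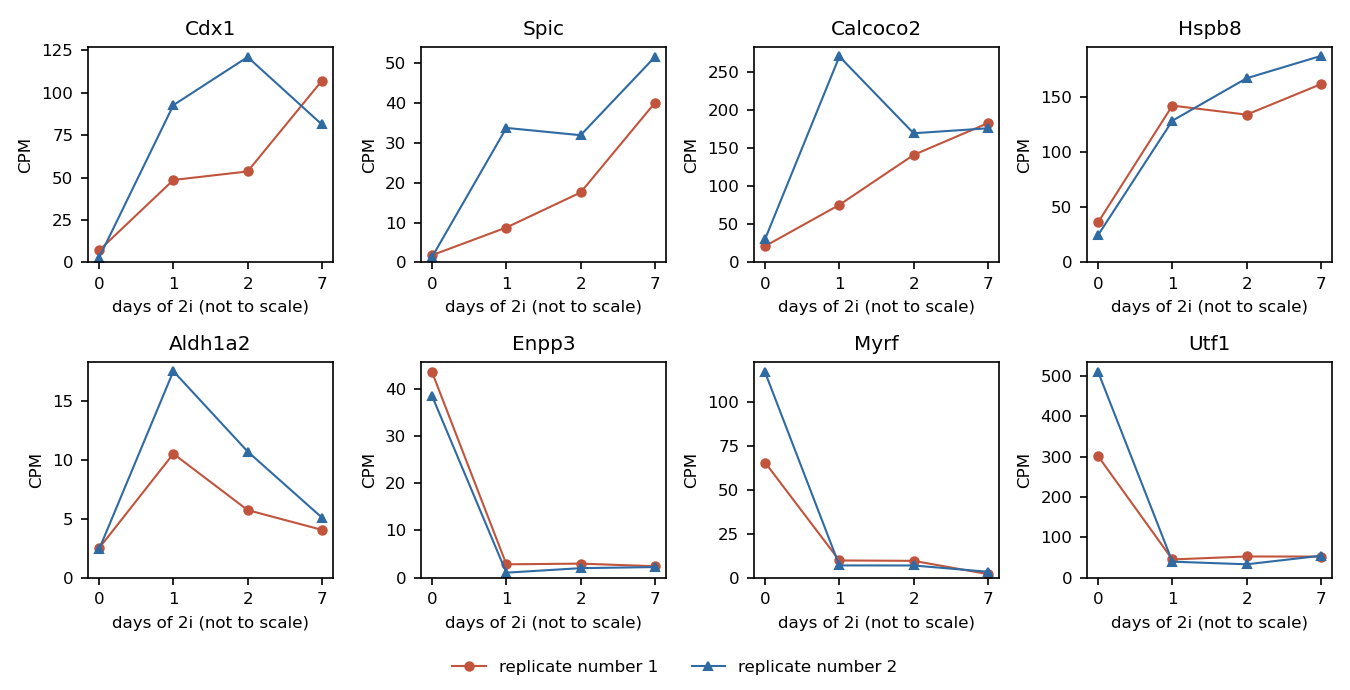
CPM of 8 called genes in WT cells at 0, 1, 2 and 7 days of 2i (axis not to scale), with lines joining the libraries that share a replicate number, which the labels do not say are 1 culture. Enpp3, Myrf and Utf1 drop within the first day and stay low, Hspb8 and Spic are higher at day 7 than at day 1, and Aldh1a2 peaks at day 1.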

How the data were processed

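Total RNA, extracted with TRIzol, was sequenced by DNBSeq. The deposited values are raw gene counts, 1 table of 20621 symbols for all 17 libraries. STAR, deepTools and the build mm10 are named in the submitters' processing notes. Versions, counting tool, annotation and strand setting are not given in the sources used here, so reads of overlapping or antisense genes and of near-identical copies may be mixed.

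Counts were analysed with R 4.3.3 and edgeR 4.0.16, by filterByExpr, TMM normalisation and 1 quasi-likelihood fit with a coefficient for each of 8 groups (15365 genes, common biological coefficient of variation 0.333, 9 residual degrees of freedom). The two-sided contrasts were WT day 1 minus day 0, the same in RNAPII-mut, and their difference, each with Benjamini-Hochberg adjustment. Counts in libraries of this size make counting error small for genes above 1 CPM, and the spread between libraries limits the precision. Within each replicate number, log2 ratios used CPM + 0.5 and no test. The 32 lists are described by counts and medians. Named genes are the 12 largest rises and 11 falls among calls of at least 5 CPM with a non-predicted symbol, the called list members (at most 4 a list) and preset genes of the pathways; other names were chosen after their values were seen. Members and lists were chosen with earlier results of these data known. Positions came from GENCODE M21, with 20102 symbols matched (97.5%), and promoters from RefSeq GRCm38.p6 (61 of 91 genes). Alternatives were DESeq2 1.42.0, 2 other normalisations, other filters and pseudocounts, fits to fewer groups, a block for replicate number, and leaving out libraries.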

Additional observations from a re-analysis of the deposited data

How the results depend on the processing

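The WT count of 31 called genes was 33 with RLE and 39 with upper quartile normalisation, 40 without and 41 with a stricter low-count filter (1 CPM in 4 libraries), and all 31 were among the calls in each of these. It moved to 321 with DESeq2, to 0 with only the compared groups and 0 with only WT libraries, to a range of 0 to 83 on leaving out 1 library, and to 29 and 2 on leaving out both WT libraries of number 1 or number 2. The 31 genes kept their sign in every one of these fits. The mutant count of 216 moved to 801 with DESeq2, to 1077 with only the compared groups, and to a range of 1 to 113 on leaving out 1 library. The difference between responses gave 0 calls in each setting run. The replicate numbers are shared by label only, and the deviations of same-numbered WT libraries correlated at r = 0.744 between days 0 and 1 and at 0.236 to 0.744 over the 6 pairs of WT days. With a replicate block, calls were 237 in WT, with the 31 among them, 821 in the mutant and 0 for the difference. The count past 2-fold in both numbers, 273, became 519 with a pseudocount of 0.1 and 137 with one of 2, and was 273 without the filter. Over 14 settings, 75 values of 34 named genes that were not called changed sign. The cause of these shifts was not tested. The fits that leave libraries out also hold fewer libraries, and the part of this in the shifts was not tested either.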

Other observations

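Beyond the genes of the naming rule, several genes were past 2-fold in both replicate numbers without being called, and all are named here after their values were seen. Trpm1, a cation channel of the melastatin family, had 75.4 and 92.9 CPM at day 1, against 10.4 and 0.95 CPM at day 0 (edgeR adjusted p = 0.106). S100a13, a calcium-binding protein, had 31.6 and 56.1 CPM at day 1, against 4.54 and 3.18 CPM at day 0 (edgeR adjusted p = 0.110). Kit, the receptor for stem cell factor, had 170.3 and 178.0 CPM at day 1, against 61.0 and 36.8 CPM at day 0 (edgeR adjusted p = 0.0945). Aqp3, an aquaglyceroporin, had 86.0 and 149.5 CPM at day 1, against 21.3 and 34.95 CPM at day 0 (edgeR adjusted p = 0.0945). Each stood higher in both day 1 libraries. Osm, the cytokine oncostatin M, had 3.38 and 9.44 CPM at day 1, against 0.40 and 0.44 CPM at day 0 (edgeR adjusted p = 0.0550).

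On the lower side, Jarid2, a cofactor of Polycomb repressive complex 2, had 181.4 and 222.2 CPM at day 1, against 450.7 and 760.4 CPM at day 0 (edgeR adjusted p = 0.0829). Phf19, another cofactor of that complex, had 3.74 and 3.06 CPM at day 1, against 8.24 and 25.1 CPM at day 0 (edgeR adjusted p = 0.106). The catalytic subunit Ezh2 was closer, with 162.3 and 157.0 CPM at day 1, against 190.3 and 198.4 CPM at day 0. Pdk1, which restrains entry of pyruvate into mitochondria, had 85.8 and 56.1 CPM at day 1, against 253.1 and 291.5 CPM at day 0 (edgeR adjusted p = 0.300). Of 23 Polycomb and 25 glycolysis genes tested, edgeR called 0.

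Past 2-fold in opposite directions in the 2 replicate numbers were 4 genes. Egr1, Wnt6 and Tmem151a were higher at day 1 in number 1 and lower in number 2, and Sema6a the other way. Wnt6, a Wnt ligand, had 18.0 and 1.37 CPM at day 1, against 5.06 and 7.49 CPM at day 0. Sema6a, a semaphorin, had 15.9 and 3.22 CPM at day 1, against 46.7 and 1.25 CPM at day 0.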
